A study of Arabidopsis thaliana with 35 samples.

Results

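MSRB5 (AT4G04830) and MSRB6 (AT4G04840) are 2 methionine sulfoxide reductase genes of Arabidopsis thaliana, and they were the 2 members described here among 13355 genes measured. They were chosen by name, with their levels over the 12 groups of the study, their changes at 28 °C against 20 °C, and the contrast of root with the shoot organs already in view. Those values are therefore given as a description, with standard errors and without tests. Each gene was read by 1 probe set of the array, of the type designed to match 1 transcript.

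The samples were dissected cotyledons, hypocotyls and roots from seedlings of the natural accession RRS-7, for which the labels name no transgene or mutation. All seedlings grew for 5 days at 20 °C in long days of 16 h light. The 28 °C groups were then shifted at ZT 7, 7 h after lights on, and harvested after 3 h (ZT 10) or 24 h (ZT 7 of the next day), while the 20 °C groups stayed at 20 °C and were harvested at the same times. Each organ, temperature and time had 3 arrays of pooled seedling material, called biological replicates in the labels, except root at 28 °C after 3 h with 2 arrays.

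Methionine residues in proteins are easily oxidised to methionine sulfoxide, which occurs in an S and an R form. A-type reductases (MSRA) reduce the S form and B-type reductases (MSRB) the R form, so that the residue is repaired rather than the protein replaced. The enzymes take their electrons from thioredoxins, and some from glutaredoxins, and plants hold several gene copies whose products lie in the plastid, the secretory pathway and the cytosol. In plants the family is best known for its part in responses to oxidative stress.

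Levels are log2 values from the authors' RMA processing, so that a difference of 1 is a doubling of signal, and the arrays of a group correlated at r between 0.992 and 0.997 across probe sets. The medians of the 35 arrays lay between 5.65 and 5.93. The organ labels were set against marker genes. Of 22 photosynthesis genes 3 were named on the array here (RCA, LHCB4.1 and LHCB4.2), and their mean level per array ran from 12.8 to 13.3 in cotyledons, from 11.9 to 12.5 in hypocotyls and from 6.36 to 7.47 in roots. Of 16 root genes 2 were named (EXPA7 and EXPA18, expansins of root hair cells), and their mean level ran from 8.09 to 8.99 in roots and stayed at or below 5.23 in the shoot organs. In whole organs, fewer cells of a type and less RNA per cell cannot be told apart.

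In cotyledons MSRB5 was at its lowest. The arrays at 20 °C after 3 h read 6.68, 6.37 and 7.10, and those at 28 °C read 8.35, 8.24 and 8.10. After 24 h the 20 °C arrays read 7.07, 7.31 and 7.25, and the 28 °C arrays 8.23, 8.46 and 8.56. At both times every 28 °C array lay above every 20 °C array. The group means differed by 1.51 ± 0.13 (log2 difference ± SE) after 3 h and by 1.21 ± 0.13 after 24 h. These are 2.85-fold and 2.31-fold higher signals, and they ranked 31st and 102nd among the rises of all genes in those comparisons. The widest group of MSRB5 was cotyledon at 20 °C after 3 h, with an SD of 0.37 (n = 3), and leaving out 1 of its arrays in turn moved the 3 h difference between 1.34 and 1.70.

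In hypocotyls MSRB5 stood higher and moved less. The 20 °C arrays read 8.66, 8.65 and 8.84 after 3 h, against 8.98, 9.28 and 8.91 at 28 °C. After 24 h they read 8.99, 9.22 and 8.97 at 20 °C and 9.28, 9.29 and 9.31 at 28 °C. The groups did not overlap at either time, yet the differences were small, 0.34 ± 0.13 after 3 h and 0.23 ± 0.13 after 24 h. They ranked 765th and 1338th among the rises of all genes.

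In roots MSRB5 was also high at 20 °C, with arrays at 9.07, 8.94 and 8.85 after 3 h and at 8.80, 8.77 and 8.78 after 24 h. The 28 °C arrays read 9.24 and 9.33 after 3 h, and 9.55, 9.91 and 9.80 after 24 h. The difference was 0.33 ± 0.14 after 3 h and 0.97 ± 0.13, or 1.96-fold, after 24 h. These ranked 905th and 115th among all rises. MSRB5 was thus above its 20 °C arrays without overlap in 6 of 6 comparisons. Higher without overlap were 14.6% of all genes in cotyledon after 3 h, 18.5% in cotyledon after 24 h, 17.5% in hypocotyl after 3 h, 12.3% in hypocotyl after 24 h, 19.2% in root after 3 h and 16.5% in root after 24 h. The rule used these contrasts, so nothing is read from the count.

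MSRB6 was highest in the organ in which MSRB5 was lowest. In cotyledons it stood at 10.15, 10.09 and 9.90 on the 20 °C arrays after 3 h and at 10.89, 10.94 and 10.71 on the 28 °C arrays. After 24 h the values were 10.55, 10.58 and 10.46 at 20 °C, and 11.10, 11.22 and 11.06 at 28 °C. No 28 °C array overlapped the 20 °C arrays, and the differences of 0.80 ± 0.10 and 0.60 ± 0.10 are 1.74-fold and 1.51-fold higher signals. They ranked 196th and 651st among all rises.

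In hypocotyls MSRB6 was about 2 log2 units lower than in cotyledons. At 20 °C it read 7.99, 8.20 and 7.95 after 3 h and 8.22, 8.13 and 8.22 after 24 h. At 28 °C it read 8.28, 8.43 and 8.55 after 3 h and 8.79, 8.84 and 8.89 after 24 h. Again the 28 °C arrays were all higher. The group means differed by 0.37 ± 0.10 after 3 h and by 0.65 ± 0.10 after 24 h, ranked 599th and 105th among all rises. For MSRB6 the hypocotyl difference at 24 h was thus close to the cotyledon one, whereas for MSRB5 it was the smallest of its 6 differences.

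In roots MSRB6 went the other way at the early harvest. The 20 °C arrays read 8.63, 8.26 and 8.35 after 3 h, and the 2 arrays at 28 °C read 7.67 and 7.36. This is a difference of -0.90 ± 0.11, a 1.86-fold lower signal, ranked 75th among the lower genes of that comparison. With only 1 of the 2 arrays at 28 °C it was -1.05 or -0.74. After 24 h the root arrays read 8.30, 8.46 and 8.45 at 20 °C and 8.43, 8.67 and 8.44 at 28 °C, which overlap. The difference was 0.11 ± 0.10, ranked 3312th among all rises. Over the 6 comparisons MSRB6 was higher without overlap in 4, lower without overlap in 1 and overlapping in 1. In root after 3 h, 19.6% of all genes were lower without overlap. The mean of the 3 photosynthesis markers in that comparison lay between 6.36 and 6.78 on the 20 °C arrays and between 6.81 and 7.47 on the 28 °C arrays. After 3 h that mean was also higher at 28 °C in cotyledons (12.78 to 12.90 at 20 °C, 13.09 to 13.18 at 28 °C). In hypocotyls it ran from 11.86 to 11.96 at 20 °C and from 12.33 to 12.42 at 28 °C. The mean of the 2 root markers in root after 3 h ran from 8.09 to 8.33 at 20 °C and from 8.54 to 8.57 at 28 °C. The part of these markers in the MSRB6 value was not tested.

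**Figure D1:**
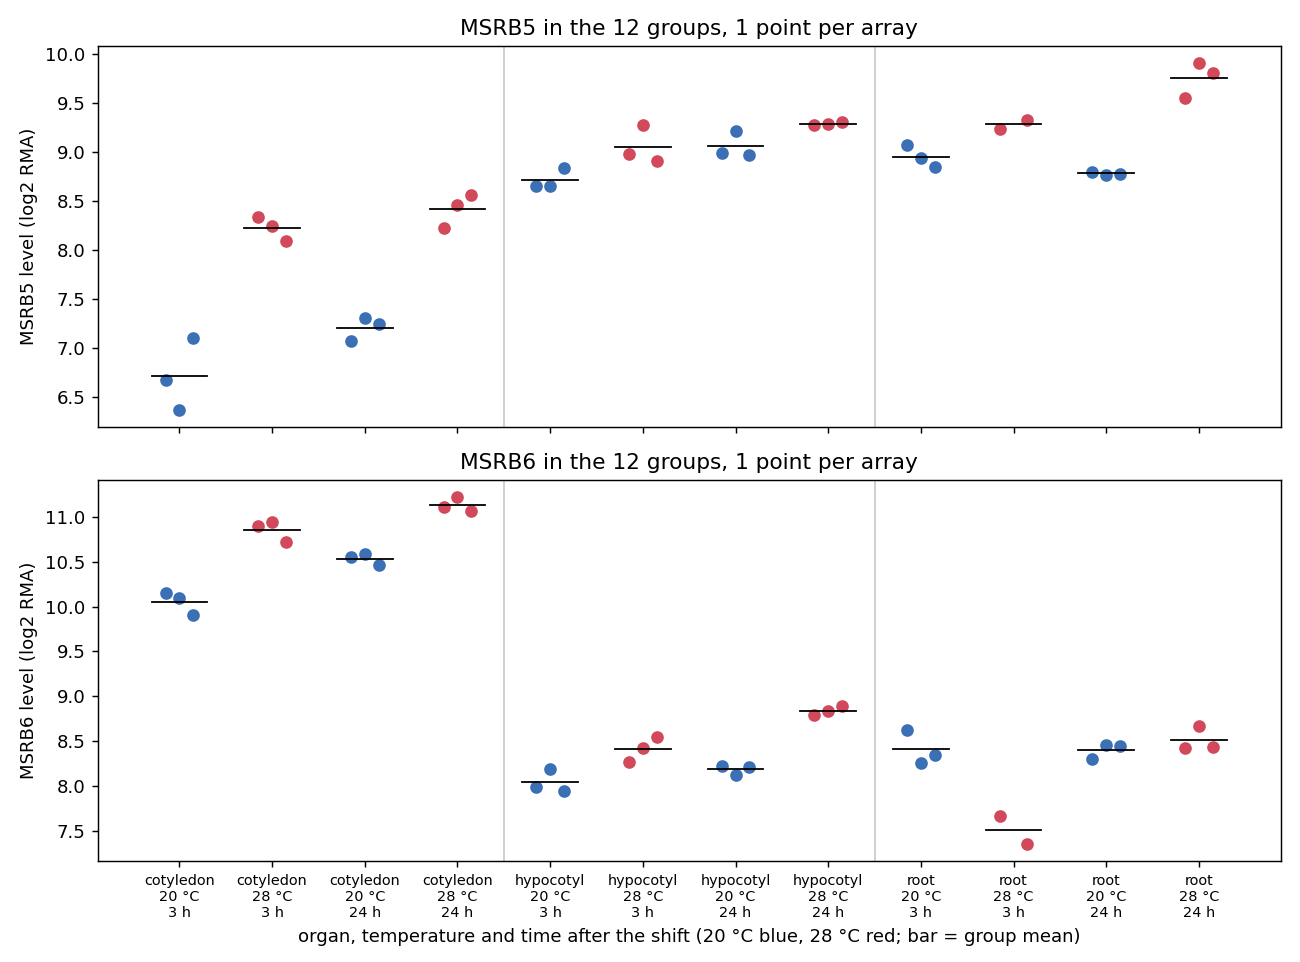
Log2 RMA level of MSRB5 (upper panel) and MSRB6 (lower panel) on each of the 35 arrays, by organ, temperature and time; 20 °C is blue, 28 °C is red, and the bar is the group mean. MSRB5 is lowest in cotyledons at 20 °C and highest in roots at 28 °C after 24 h, while MSRB6 is highest in cotyledons and lowest on the 2 root arrays at 28 °C after 3 h.

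Ordered by group mean, MSRB5 rose from 6.72 in cotyledon at 20 °C after 3 h to 9.76 in root at 28 °C after 24 h. The 4 cotyledon groups filled the bottom 4 places, so that even the warm cotyledons (8.23 after 3 h and 8.42 after 24 h) lay below every hypocotyl and root group. Among neighbours in this order, the arrays of the 2 cotyledon groups at 20 °C overlapped, as did those of the 2 cotyledon groups at 28 °C. Hypocotyl and root groups were interleaved between 8.72 and 9.29, with most neighbours overlapping, and the root group at 28 °C after 24 h stood apart by 0.46 from the next lower group.

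For MSRB6 the 4 cotyledon groups filled the top 4 places, from 10.05 at 20 °C after 3 h to 11.13 at 28 °C after 24 h, each separate from its neighbour. A gap of 1.21 divided them from the highest of the other groups, hypocotyl at 28 °C after 24 h with a mean of 8.84. The lowest group was root at 28 °C after 3 h, with a mean of 7.52, which was 0.53 below hypocotyl at 20 °C after 3 h. Hypocotyl at 20 °C after 24 h followed with a mean of 8.19, separate from the next higher group. Above it, root at 20 °C at both times and hypocotyl at 28 °C after 3 h had means of 8.40, 8.41 and 8.42 and overlapped.

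The organ divide for these genes thus ran between the cotyledon and the other organs more than between shoot and root. At 20 °C, hypocotyl was above cotyledon in MSRB5 by 2.0 ± 0.13 after 3 h and by 1.85 ± 0.13 after 24 h, given without a test. These are 4.00-fold and 3.61-fold higher signals. For MSRB6 hypocotyl was below cotyledon by a like amount, with differences of -2.0 ± 0.10 after 3 h and -2.34 ± 0.10 after 24 h.

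Root and cotyledon at 20 °C differed in MSRB5 by 2.24 ± 0.13 after 3 h and by 1.58 ± 0.13 after 24 h, root being higher. In MSRB6 they differed by -1.64 ± 0.10 and -2.13 ± 0.10, root being lower. Root and hypocotyl were close. Root minus hypocotyl was 0.24 ± 0.13 and -0.28 ± 0.13 for MSRB5 after 3 h and 24 h, and 0.37 ± 0.10 and 0.21 ± 0.10 for MSRB6.

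At 28 °C the organs stood at other distances. For MSRB5, hypocotyl minus cotyledon was 0.83 ± 0.13 after 3 h and 0.87 ± 0.13 after 24 h, less than at 20 °C. For MSRB6, root minus cotyledon was -3.33 ± 0.11 after 3 h, a 10.1-fold lower signal in root, and -2.61 ± 0.10 after 24 h. The change at 28 °C differed between root and cotyledon after 3 h by -1.18 ± 0.19 for MSRB5 and by -1.69 ± 0.15 for MSRB6. For MSRB5 the first of these is a smaller rise in root, and for MSRB6 it is a rise in cotyledon against a lower level in root. Between hypocotyl and cotyledon after 3 h the difference was -1.17 ± 0.18 for MSRB5 and -0.43 ± 0.14 for MSRB6.

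**Figure D2:**
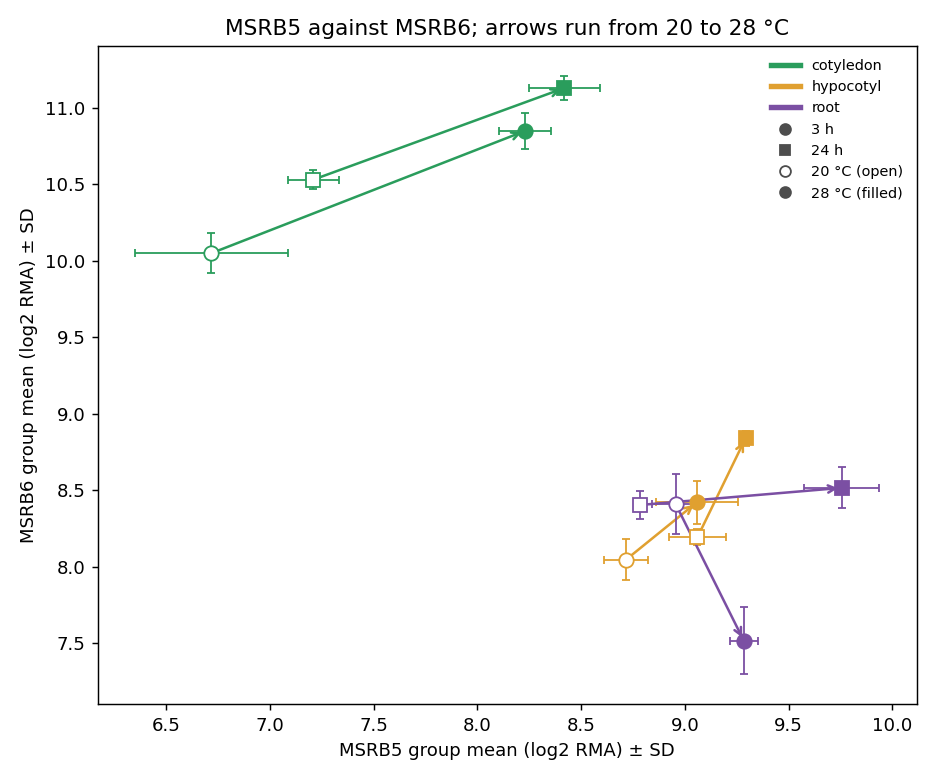
Group mean of MSRB5 (horizontal axis) against that of MSRB6 (vertical axis), both log2 RMA with SD bars over 3 arrays, or 2 for root at 28 °C after 3 h; open symbols are 20 °C, filled symbols 28 °C, and arrows join the temperatures of 1 organ and time. The cotyledon groups lie apart at high MSRB6 and low MSRB5, and the arrow of root after 3 h is the one that points to lower MSRB6.

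The 2 harvests at 20 °C are compared without a test, since these levels were in view when the genes were chosen. The contrast sets ZT 7 of day 6 against ZT 10 of day 5, so that age and time of day differ together. In cotyledons MSRB6 was higher at the later harvest by 0.48 ± 0.10, with no overlap between the arrays, as were 12.4% of all genes. MSRB5 was higher there by 0.49 ± 0.13, but the arrays of the 2 groups overlapped. Without replicate 2 of cotyledon at 20 °C after 3 h the MSRB5 difference was 0.32. In hypocotyls the difference was 0.34 ± 0.13 for MSRB5 and 0.15 ± 0.10 for MSRB6. In roots it was -0.17 ± 0.13 for MSRB5 and -0.01 ± 0.10 for MSRB6.

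At 28 °C the 2 harvests of root differed more than those of root at 20 °C. MSRB6 was 1.0 ± 0.11 higher after 24 h than after 3 h, and MSRB5 0.47 ± 0.14 higher, given without a test. The temperature change in root thus differed between 24 h and 3 h by 1.01 ± 0.15 for MSRB6 and by 0.64 ± 0.19 for MSRB5.

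Across the 12 group means MSRB5 and MSRB6 had a Pearson r of -0.67. Across the 6 temperature changes r was 0.46. Both are descriptions of groups that share arrays and organs. The sign of the first follows the cotyledon groups, which held the 4 lowest MSRB5 and the 4 highest MSRB6 means.

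Of the 12 other methionine sulfoxide reductase genes listed, 3 were measured: MSRB3, a B-type enzyme of the secretory pathway, MSRB9, another B-type gene, and MSRA5, an A-type gene. Among the 18 tests of these genes at 28 °C against 20 °C, 1 passed. MSRB9 was higher in hypocotyl after 3 h by 0.40 ± 0.13 (limma adjusted p = 0.032), where 14.6% of all genes passed. The arrays read 8.17, 8.13 and 8.13 at 20 °C and 8.54, 8.36 and 8.72 at 28 °C, without overlap. The call was lost on leaving out any 1 of 5 of these 6 arrays (replicates 1, 2 and 3 at 20 °C, replicates 1 and 3 at 28 °C), with limma adjusted p up to 0.16. In root after 24 h MSRB9 differed by 0.36 ± 0.13 (limma adjusted p = 0.052). The changes of MSRB3 lay between -0.15 and 0.11 and those of MSRA5 between -0.04 and 0.17, and none passed. The shares of all genes that passed were 22.4% in cotyledon after 3 h, 28.5% in cotyledon after 24 h, 9.67% in hypocotyl after 24 h, 10.7% in root after 3 h and 17.7% in root after 24 h. The medians of the 3 genes, between -0.04 and 0.16, compare with medians between -0.02 and 0.03 over all genes.

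**Figure D3:**
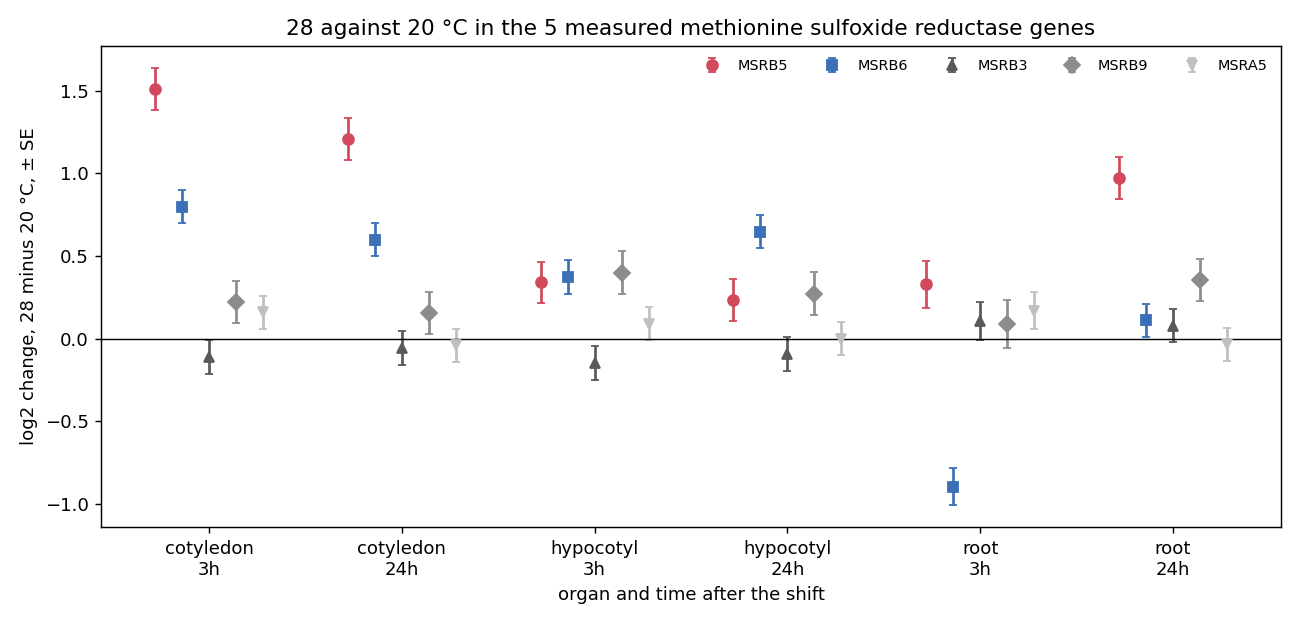
Log2 change at 28 °C against 20 °C, with SE bars from the fit over all arrays, for the 5 measured methionine sulfoxide reductase genes in each organ and time. MSRB5 reaches 1.51 in cotyledon after 3 h and MSRB6 falls to -0.90 in root after 3 h, while MSRB3, MSRB9 and MSRA5 stay between -0.15 and 0.40.

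Organ levels of these relatives also differed from those of the 2 members. MSRB9 was a root gene here: at 20 °C it read between 10.9 and 11.2 in roots, between 8.13 and 8.47 in hypocotyls and between 7.30 and 7.90 in cotyledons. Root exceeded cotyledon by 3.41 ± 0.13 after 3 h and 3.53 ± 0.13 after 24 h, or 10.6-fold and 11.5-fold (limma adjusted p = 8.8e-22 and 3.3e-22), where 65.2% and 69% of all genes passed. MSRA5 was 0.90 ± 0.10 and 0.77 ± 0.10 higher in root than in cotyledon, and MSRB3 0.26 ± 0.10 and 0.29 ± 0.10 (limma adjusted p at most 0.028). MSRB6 was the only one of the 5 measured genes that read lower in root than in cotyledon at 20 °C.

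In the gene order of the RefSeq annotation of assembly TAIR10.1, MSRB5 and MSRB6 lie next to each other on chromosome 4, with 1 long non-coding RNA gene and no protein-coding gene between them. MSRB3 and MSRB4 precede them in the same stretch, MSRB4 being unnamed on the array here. Of the 10 flanking genes 4 were measured. AT4G04790, which precedes MSRB3, fell in cotyledon after 3 h by 0.73 ± 0.09 on the log2 scale (limma adjusted p = 2.4e-07) and in hypocotyl after 3 h by 0.47 ± 0.09 (adjusted p = 5.3e-04). It rose in cotyledon after 24 h by 0.62 ± 0.09 (limma adjusted p = 2.7e-06). The pseudogene AT4G04820, between MSRB4 and MSRB5, was read by a probe set that can bind related transcripts. Its changes lay between -0.29 and 0.22 and none passed. DER2.2, a gene of the derlin family, fell in cotyledon after 24 h by 0.36 ± 0.10 on the log2 scale (limma adjusted p = 0.0047). None of the 4 measured neighbours passed as higher in cotyledon after 3 h or as lower in root after 3 h. Of all genes, 22.4% and 10.7% passed there in either direction, and 4 genes are too few to read against these shares. In root after 3 h the 4 genes differed by -0.25 ± 0.10 (AT4G04790), 0.11 ± 0.11 (MSRB3), 0.17 ± 0.14 (AT4G04820) and -0.28 ± 0.11 (DER2.2). MSRB5 and MSRB6 were not put to this test.

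Genes most like MSRB5 over the 12 group means were taken among 3921 genes with an SD of at least 0.5 between groups. They were AT1G14120 (Pearson r = 0.96), AT4G23680 (r = 0.95), AT5G40250 (r = 0.95), AT4G24610 (r = 0.94) and NAI2 (r = 0.93), which codes for a protein of the endoplasmic reticulum (ER) bodies. At 28 °C against 20 °C, AT1G14120 was higher in cotyledon by 2.20 ± 0.12 after 3 h and by 2.54 ± 0.12 after 24 h, and in the other organs by 0.84 to 1.04. NAI2 was higher in cotyledon by 0.60 ± 0.09 after 3 h and 0.64 ± 0.09 after 24 h, and in root by 0.15 ± 0.10 and 0.52 ± 0.09.

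Over the 6 temperature changes, among 682 genes with a change of at least 1 in any comparison, those most like MSRB5 were AT4G23670 (r = 0.96), AT4G24610 (r = 0.92), AT5G44060 (r = 0.91), NAI1 (r = 0.89) and AUR1 (r = 0.87). NAI1 codes for a bHLH factor needed for ER bodies, and AUR1 for an Aurora kinase of cell division. AT4G23670 was higher in cotyledon by 1.27 ± 0.11 after 3 h and 0.98 ± 0.11 after 24 h, in hypocotyl by 0.56 ± 0.11 and 0.53 ± 0.11, and in root by 0.32 ± 0.13 and 0.83 ± 0.11. Like MSRB5 it thus changed more in root after 24 h than after 3 h. NAI1 differed by 1.05 ± 0.12 and 0.76 ± 0.12 in cotyledon, and by -0.16 ± 0.14 and 0.46 ± 0.12 in root. AT4G24610 was in both groups of 5. These genes were picked for their likeness, on arrays that MSRB5 shares, so no test is attached.

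For MSRB6 the genes most like it over the group means were AT4G31310 (r = 0.97), CYP71B24 (r = 0.97), a cytochrome P450 gene, AT5G22860 (r = 0.96), RING1 (r = 0.96) and AT1G64360 (r = 0.96). All 5, picked for this likeness, were highest in the 4 cotyledon groups. None of them had the low root value of MSRB6 at 28 °C after 3 h: their changes in that comparison lay between -0.16 and 0.08. In cotyledon AT1G64360 was higher by 0.87 ± 0.13 after 3 h and by 1.35 ± 0.13 after 24 h, and AT5G22860 by 0.33 ± 0.14 and 0.58 ± 0.14.

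Over the 6 temperature changes the genes most like MSRB6 were AT3G27400 (r = 0.97), AT2G32020 (r = 0.95), AT3G27950 (r = 0.94), AT1G05700 (r = 0.94) and AT3G48940 (r = 0.94). These genes were picked for their likeness to MSRB6, so a shared low point in root after 3 h follows from the choice and no test is attached. AT3G27400, AT1G05700 and AT3G48940 reached the required change of at least 1 only in that comparison. For the 5 genes in the order above, the differences there were -1.53 ± 0.14, -1.98 ± 0.16, -1.79 ± 0.14, -1.17 ± 0.15 and -1.07 ± 0.13. In cotyledon after 3 h their differences lay between -0.71 and 0.15, where MSRB6 was 0.80 higher. The correlation of MSRB6 with these genes thus does not require a shared sign of the changes. MSRB6 and each of these genes had the lowest change in root after 3 h, where the 28 °C group has only 2 arrays.

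**Figure D4:**
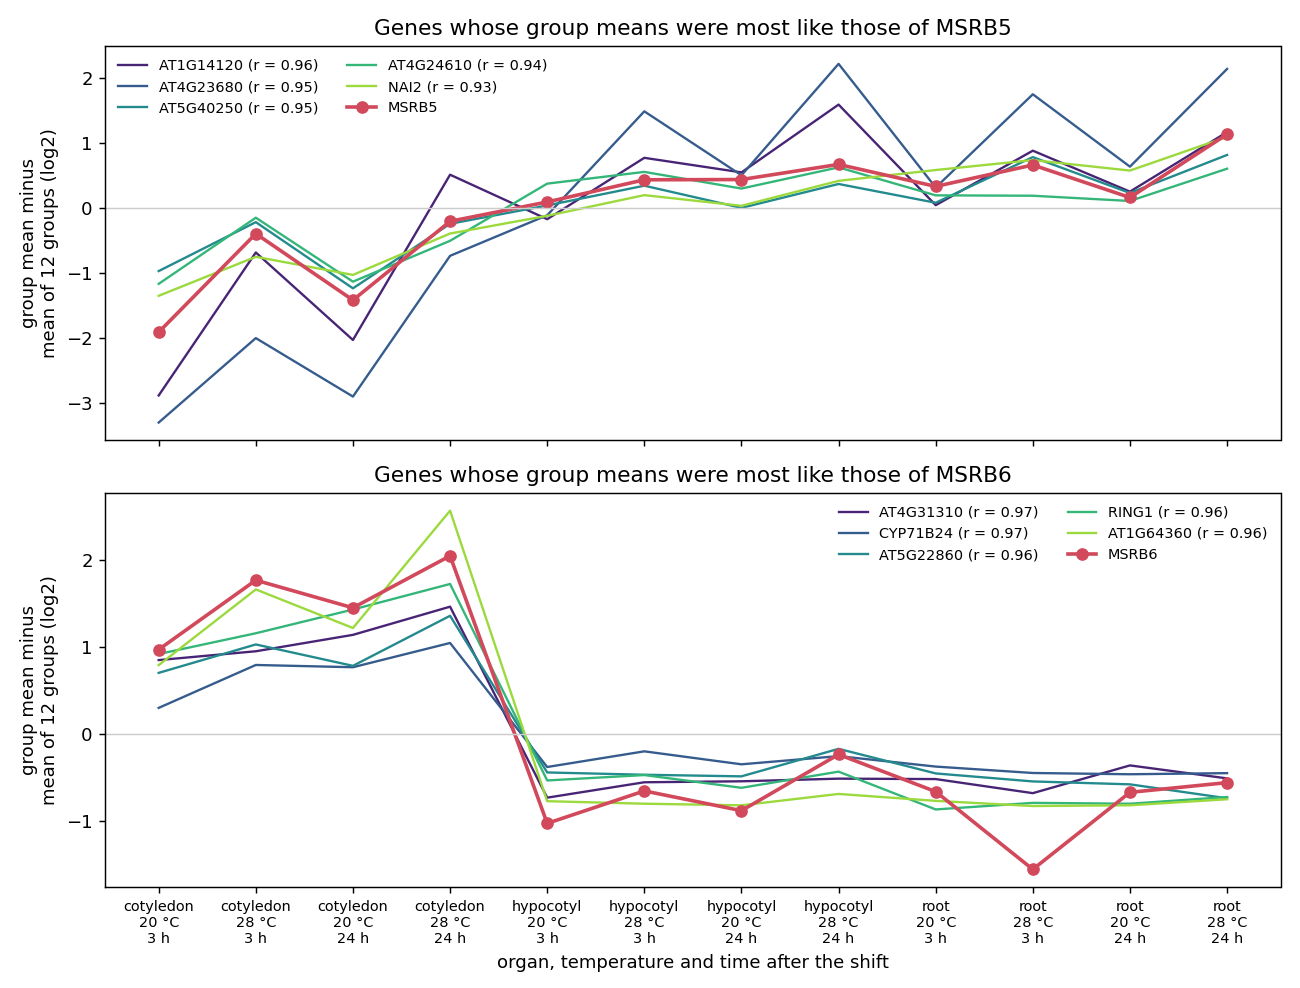
Group means of MSRB5 (upper panel) and MSRB6 (lower panel), each with the 5 genes of highest Pearson r over the 12 groups, as log2 difference from the mean of the gene's own 12 group means. The genes like MSRB5 are lowest in cotyledons at 20 °C, and those like MSRB6 are high in cotyledons but lack its low point in root at 28 °C after 3 h.

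Thioredoxins supply electrons to the reductases, and 8 of 26 genes listed for the thioredoxin system were measured. In cotyledon after 24 h 1 rose and 5 fell, where 15% of all genes rose and 13.4% fell; the median of the 8 was -0.32 against -0.02 over all genes. TRXO1, a mitochondrial thioredoxin, rose by 0.65 ± 0.10 (limma adjusted p = 7.3e-06). FTRB, the catalytic subunit of the ferredoxin-thioredoxin reductase of plastids, fell by 0.62 ± 0.09 on the log2 scale (limma adjusted p = 2.3e-06), and NTRC, the plastid reductase with its own thioredoxin domain, fell by 0.59 ± 0.09 (adjusted p = 5.4e-06). Of the 8 genes, 1 rose in cotyledon after 3 h, where 22.4% of all genes passed in either direction. In hypocotyl after 3 h 1 rose and 1 fell, against 14.6% of all genes, and after 24 h none passed, against 9.67%. In root after 3 h 1 fell, against 10.7%, and after 24 h 1 rose and 2 fell, against 17.7%. The plastid thioredoxin TRXF2 rose in hypocotyl after 3 h by 0.43 ± 0.11 (limma adjusted p = 0.0075).

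Of 10 listed glutaredoxins 5 were measured. GRX480, a CC-type glutaredoxin that binds TGA factors, rose in root by 0.97 ± 0.18 after 3 h and by 0.98 ± 0.16 after 24 h (limma adjusted p = 4.3e-04 and 4.0e-05). In the same organ after 24 h GRXC1 fell by 0.72 ± 0.09 and GRXC2 by 0.52 ± 0.08 on the log2 scale (limma adjusted p = 2.6e-07 and 2.0e-05). In root after 24 h 1 of the 5 rose and 2 fell, against 8.39% and 9.31% of all genes, and the median of the 5 was -0.12 against -0.01 over all genes. ROXY1 rose in root after 3 h by 0.61 ± 0.15 (limma adjusted p = 0.0066), a call lost without replicate 1 of root at 28 °C (adjusted p = 0.12) or replicate 2 of root at 20 °C (adjusted p = 0.054). In hypocotyl after 24 h ROXY1 fell instead, with a difference of -0.56, a call lost without replicate 2 at 28 °C (limma adjusted p = 0.088). GRXC1 also passed as lower in hypocotyl and cotyledon after 24 h, and GRXC2 passed as higher in cotyledon after 24 h, by 0.27. Both cotyledon calls were lost with only the compared arrays (limma adjusted p = 0.057 and 0.063).

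Peroxide and superoxide removal was represented by 5 of 34 listed genes. In cotyledon after 24 h none rose and 3 fell, where 15% of all genes rose and 13.4% fell; the median of the 5 genes was -0.30 against -0.02 over all genes. These were TAPX, the thylakoid ascorbate peroxidase, with a fall of 0.70 ± 0.11 on the log2 scale (limma adjusted p = 4.9e-06), SAPX, its stromal relative, with a fall of 0.37 ± 0.09 (adjusted p = 0.0027), and the plastid peroxiredoxin PRXIIE, with a fall of 0.30 ± 0.08 (adjusted p = 0.0037). SAPX also fell in hypocotyl after 24 h by 0.51 ± 0.09 (limma adjusted p = 4.7e-04). After 3 h SAPX passed as lower in cotyledon (-0.32) and in hypocotyl (-0.37). The first call was lost without replicate 3 at 28 °C and the second without replicate 1 at 20 °C (limma adjusted p = 0.067 and 0.057). In cotyledon after 3 h 1 of the 5 genes, SAPX, fell and 1 rose, where 22.4% of all genes passed. The gene that rose is not among those named here, and its call was lost in 4 of 6 runs that left out 1 array. For the 2-Cys peroxiredoxin 2CPA the changes lay between -0.26 and 0.02. Only the lowest, in root after 24 h, passed, and the call was lost after a second quantile normalisation (limma adjusted p = 0.058) and with only the compared arrays (adjusted p = 0.091). It was also lost in 3 of 6 runs that left out 1 array (limma adjusted p up to 0.28).

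Methionine synthesis and recycling was represented by 6 of 27 listed genes, and in cotyledon after 24 h 5 of the 6 rose and none fell, against 15% and 13.4% of all genes. The median of the 6 was 0.58 against -0.02 over all genes. ARD4, an acireductone dioxygenase of the methionine salvage cycle, rose in cotyledon by 1.63 ± 0.09 after 3 h and by 1.2 ± 0.09 after 24 h (limma adjusted p = 2.6e-14 and 7.9e-12), and in hypocotyl by 0.65 ± 0.09 and 0.59 ± 0.09 (adjusted p = 8.6e-06 and 6.8e-05). In root it rose by 0.39 ± 0.10 after 3 h (limma adjusted p = 0.012), a call lost without either array at 28 °C (adjusted p = 0.071 and 0.11) or replicate 2 at 20 °C (adjusted p = 0.062), and differed by 0.07 ± 0.09 after 24 h. ARD4 and MSRB5 thus both had their largest change in cotyledon after 3 h, but in root after 24 h MSRB5 was 0.97 higher and ARD4 did not pass.

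BCAT4, an aminotransferase that diverts methionine into chain elongation for glucosinolates, rose in cotyledon after 24 h by 2.13 ± 0.09 and in hypocotyl after 24 h by 0.98 ± 0.09 (limma adjusted p = 3.8e-18 and 7.3e-09). MGL, methionine gamma-lyase, which breaks methionine down, rose in root after 24 h by 0.96 ± 0.13 (limma adjusted p = 1.3e-06) and in hypocotyl after 24 h by 0.80 ± 0.13 (adjusted p = 8.1e-05). HMT1, a homocysteine methyltransferase, rose in cotyledon after 24 h by 0.61 ± 0.14 (limma adjusted p = 0.0010). The list therefore mixes genes that make methionine with genes that use it.

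**Figure D5:**
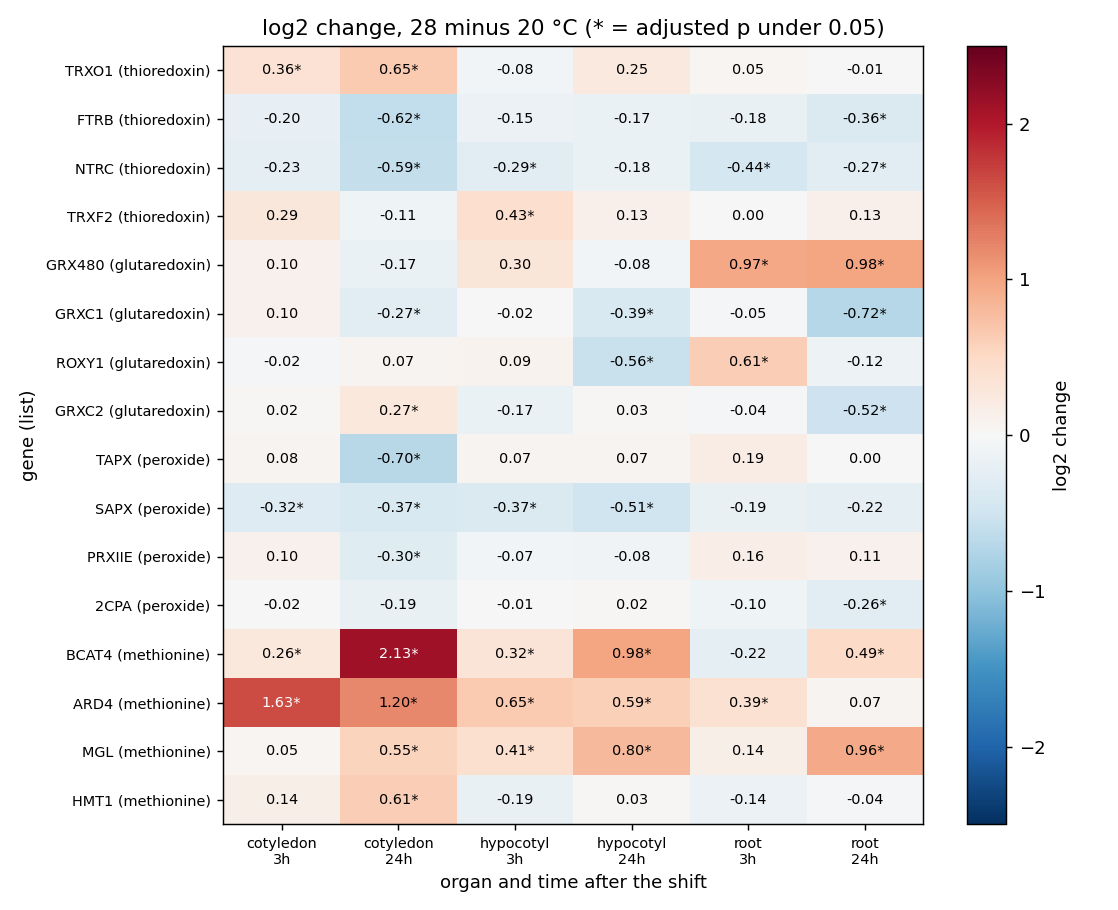
Log2 change at 28 °C against 20 °C for up to 4 genes of each electron-supply, peroxide and methionine list (rows) in each organ and time (columns), with an asterisk where the limma adjusted p was under 0.05. In cotyledon after 24 h the 4 methionine genes rose, BCAT4 by 2.13, and TAPX, FTRB and NTRC fell.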

How the data were processed

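Total RNA of 35 samples was measured on 1-colour Affymetrix arrays. The deposited values are log2 RMA values per probe set; the submitters' processing notes name RMA and limma without versions, and the arrays normalised together are not given in the sources used here. The table holds 22746 probe sets, of which 13513 name 1 gene in the probe annotation, 503 several and 8730 are unlisted and stay unnamed here. For 147 genes with several probe sets the brightest stood for the gene. Symbols and gene order came from RefSeq TAIR10.1, which matched 13285 of 13355 genes.

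A single linear model with a mean per group (12 groups, 23 residual degrees of freedom) covered every array. It was run in R 4.3.3 with limma 3.58.1, by lmFit, contrasts.fit and default eBayes. Tests were moderated and two-sided, with Benjamini-Hochberg adjustment over all genes of a comparison, and the threshold was an adjusted p of 0.05. Errors of log2 differences are standard errors of this fit, with a median of 0.11 over all genes for 28 °C against 20 °C. Tests planned for MSRB5 and MSRB6 between harvests and between hypocotyl and cotyledon are not given, because their group levels were in view when they were chosen. The procedure was tested on simulated data. Precision is limited by the number of arrays. The members and the gene lists were chosen with earlier results of these data known. Named genes were MSRB5, MSRB6, the measured relatives and neighbours (5 genes each side), up to 4 genes per other list with the largest passing change, and the 5 genes most like each member by Pearson r over groups and over temperature changes. No sequences are shown.

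Replicate numbers did not pair samples: over 17 pairs of arrays with the same number, deviations from the group means correlated between -0.20 and 0.17, and 3 pairs exceeded 0.1. For 1 cotyledon array at 28 °C after 3 h the title and the description give different replicate numbers; the title was used. Alternatives were a second quantile normalisation, median centring, trend and robust eBayes, dim probe sets left out, the mean over probe sets, the compared arrays alone, a replicate block and each array left out.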

Additional observations from a re-analysis of the deposited data

Results flagged for a closer look

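MSRB6 went in opposite directions in root and in the shoot organs after 3 h at 28 °C: both root arrays lay below all 20 °C arrays, and all cotyledon and hypocotyl arrays lay above theirs. Its change in root differed from that in cotyledon by -1.69 ± 0.15 and from that in hypocotyl by -1.27 ± 0.15 (log2 ± SE). The difference was not tested, because the choice of the gene used it.

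The temperature change of the following list genes differed between organs at a limma adjusted p under 0.05 for the difference itself. These genes were named because they had the largest passing temperature changes of their lists on the same arrays. That choice favours a difference between organs, so the p-values describe the named genes and are not independent evidence. The share of all genes that passed for these differences is not given, so the number listed is not read as a result. Differences of the named genes that are not listed did not pass. Hypocotyl minus cotyledon was -0.97 for ARD4 after 3 h. After 24 h the same difference was 0.41 for NTRC, 0.45 for FTRB, -0.63 for ROXY1, 0.78 for TAPX, -0.61 for ARD4 and -1.14 for BCAT4. Root minus cotyledon after 3 h was 0.87 for GRX480, 0.64 for ROXY1, -1.24 for ARD4 and -0.48 for BCAT4. After 24 h it was -0.66 for TRXO1, -0.44 for GRXC1, -0.79 for GRXC2, 1.16 for GRX480, 0.70 for TAPX, 0.41 for PRXIIE, -0.66 for HMT1, -1.13 for ARD4 and -1.64 for BCAT4. Root minus hypocotyl was -0.54 for BCAT4 after 3 h. After 24 h it was -0.56 for GRXC2, 1.06 for GRX480, -0.52 for ARD4 and -0.50 for BCAT4. The limma adjusted p-values ran from 2.6e-11 for BCAT4 to 0.039 for ROXY1.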

How the results depend on the processing

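No temperature change or organ difference of MSRB5 or MSRB6 changed sign under any alternative run. Several of these runs could not have moved them. Trend and robust eBayes, dim probe sets left out and the compared arrays alone leave the group means of a gene as they are. The mean over probe sets does so too, because each member has 1 probe set. Leaving out 1 array moved MSRB5 in cotyledon at 28 °C against 20 °C after 3 h between 1.34 and 1.70, root minus cotyledon at 20 °C after 3 h between 2.06 and 2.43, and the harvest difference in cotyledon between 0.32 and 0.68. The latter was 0.49 with only the compared arrays fitted, a run that cannot alter it. MSRB6 in root after 3 h ranged from -1.05 to -0.74. With arrays centred on their median, MSRB6 root minus cotyledon was -1.79 after 3 h and -2.29 after 24 h. Of the 3 relatives, 1 passed in root after 24 h, in place of 0, after a second quantile normalisation, with trend and robust eBayes, without dim probe sets and with only the compared arrays. In hypocotyl after 3 h the count was 0 in place of 1 with the replicate number as a block, and between 0 and 1 on leaving out 1 array. With that block the MSRB6 change in root after 3 h was -0.93. The MSRB5 change in cotyledon after 3 h stayed at 1.51, which a block of complete pairs cannot alter. As a random block, added after seeing the data, the number had a consensus correlation of -0.02. Over all genes, leaving out dim probe sets, and so testing fewer genes, gave 5033 and 5165 calls between root and cotyledon after 3 h and 24 h against 8710 and 9217. Without 1 array the calls at 28 °C fell to 1183 of 1954 in hypocotyl after 3 h, to 746 of 1291 after 24 h and to 731 of 1434 in root after 3 h. The causes were not tested.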
